A study of Arabidopsis thaliana with 6 samples.

Results

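The UDP-glycosyltransferases of Arabidopsis thaliana, enzymes that glycosylate mostly small molecules, were taken as the genes whose description in the authors' deposited table holds "UDP-glucosyl transferase", "UDP-glycosyltransferase" or "UDP-glucosyltransferase". These were 51 of 19955 genes. The family was measured by RNA sequencing in whole seedlings of the accession Col-0, at 7 days, grown at 22 °C with 16 h of light and 8 h of darkness and given no treatment. The groups were wild type (WT) and the mir163 mutant, both in Col-0, with 3 libraries each. The mutant is named for miR163, a microRNA known for its action on methyltransferase mRNAs. The labels tell neither how its allele was made nor whether more than 1 line was used.

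UDP-glycosyltransferases move a sugar from a nucleotide-sugar donor, most often UDP-glucose, onto another molecule. The plant-specific group of these enzymes, called UGTs, conjugates small lipophilic acceptors such as hormones, flavonols, monolignols, defence acids and foreign chemicals. A sugar makes such a molecule more soluble and often inactive, so the conjugates serve for storage, transport into the vacuole and detoxification, and beta-glucosidases can release the acceptor again. UGTs carry a conserved signature near the C-terminus that binds the donor sugar, and the numbers in their names give the family by sequence similarity.

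The table gives a single FPKM (fragments per kilobase of exon, scaled by the number of mapped fragments) for each genotype, so every level below is the authors' combined value, with no replicate spread, and the depth is unknown. All p-values are the authors' own, unadjusted unless stated, and none was recomputed from libraries. The transcript of MIR163 stood at 20.5 FPKM in WT against 0.0726 in the mutant (p = 0.180 in the authors' deposited table). Markers of green tissue and of root were present in both genotypes, with RBCS1A at 18310 and 15342 and PRP3 at 84.8 and 84.6. In whole seedlings, fewer cells of a type and less RNA per cell cannot be told apart.

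The label of small-molecule enzymes held for most of the 51 members but not for all. The signature was sought in the RefSeq coding sequences as 5 codons in frame, for histidine, cysteine, glycine, tryptophan and asparagine. It was exact in 30 members, or 58.8%, against 80 of 27443 protein-coding genes of the annotation, or 0.292%. Another 9 members had it with 1 or 2 codons different. The remaining 12 lacked it, among them GBSS1 (AT1G32900), the granule-bound starch synthase that makes amylose, and SETH2 (AT3G45100), which acts in the first step of GPI-anchor synthesis. These act on starch and on a membrane lipid, although their descriptions hold the same words. By the symbols in RefSeq, 23 members carried a UGT number, 2 another symbol, and 26 only the locus identifier.

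The signature is shown for the neighbouring genes UGT85A2, UGT85A5 and UGT85A3, since these hold the highest ratio of the family, the member just under the 1.5-fold line, and a close relative with a steady level. Each sequence is 132 coding bases, 5′ to 3′ on the minus strand of chromosome 1 in TAIR10.1 (RefSeq), and the capitals at bases 55 to 69 mark the signature codons. The stretches lie at chr1:7895308-7895439, chr1:7898356-7898487 and chr1:7900774-7900905, each inside a coding exon.
UGT85A2: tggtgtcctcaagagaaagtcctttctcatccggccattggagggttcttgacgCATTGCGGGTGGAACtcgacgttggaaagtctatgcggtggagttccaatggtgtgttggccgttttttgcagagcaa
UGT85A5: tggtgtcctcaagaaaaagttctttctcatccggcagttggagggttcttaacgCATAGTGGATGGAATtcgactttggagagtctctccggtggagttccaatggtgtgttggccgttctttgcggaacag
UGT85A3: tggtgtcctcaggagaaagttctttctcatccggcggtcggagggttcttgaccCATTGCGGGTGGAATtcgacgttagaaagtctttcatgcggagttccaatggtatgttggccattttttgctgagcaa
UGT85A3 and UGT85A2 shared 116 of these 132 bases, and UGT85A5 differed from the exact signature in 1 codon.

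The members with the lowest ratios, and UGT88A1, the most abundant member with an exact signature, are shown in the same way. UGT76D1 lies at chr2:11265195-11265326 and UGT71C2 at chr2:12707797-12707928, both on the plus strand. AT5G49690 lies at chr5:20190220-20190351 and UGT88A1 at chr3:5619592-5619813, both on the minus strand, and the UGT88A1 stretch joins 2 exons.
UGT76D1: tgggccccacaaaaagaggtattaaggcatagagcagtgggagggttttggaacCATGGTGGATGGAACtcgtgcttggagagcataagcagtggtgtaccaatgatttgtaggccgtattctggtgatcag
UGT71C2: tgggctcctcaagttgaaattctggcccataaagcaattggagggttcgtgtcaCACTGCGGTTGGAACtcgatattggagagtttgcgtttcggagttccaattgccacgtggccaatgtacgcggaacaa
AT5G49690: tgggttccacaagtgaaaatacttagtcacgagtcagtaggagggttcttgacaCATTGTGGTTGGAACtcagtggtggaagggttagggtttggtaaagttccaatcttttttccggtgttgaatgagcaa
UGT88A1: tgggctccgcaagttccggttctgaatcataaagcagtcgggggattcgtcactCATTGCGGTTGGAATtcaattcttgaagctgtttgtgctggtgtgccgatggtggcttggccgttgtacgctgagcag
Of this set UGT76D1 alone departs from the exact signature, in 1 codon. Counted position by position without gaps, UGT71C2 and UGT88A1 shared 89 of 132 bases, and AT5G49690 shared 77 with each of them.

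A few members made up much of the members' summed level. GBSS1 had the highest level, with 181 FPKM in WT against 158 in the mutant. UGT88A1 (AT3G16520) followed at 162.7 and 124.6. AT2G31790 stood at 80.4 and 83.9, and UGT74D1 (AT2G31750), which glucosylates auxins, at 73.7 in both genotypes. Together these 4 genes made up 54.8% of the summed FPKM of the 51 members in WT and 51.0% in mir163. The 51 members, GBSS1 included, took 0.0800% of the table's summed FPKM in WT and 0.0831% in mir163. Their own sum was lower in mir163, at 862 against 909 in WT. The sum of the whole table was lower too, at 1.04e+06 against 1.14e+06.

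Most other members were of moderate or low level. The mean FPKM over the genotypes was at least 10 in 22 members, between 1 and 10 in 26 and under 1 in 3. The median FPKM of the members tested was 7.85 in WT and 8.42 in mir163, and in mir163 the median over all genes tested was 12.98. A gene was tested where its FPKM reached 1 in a genotype. That left out UGT73C7, AT1G50580 and AT2G36770, and kept 48 members, 3 of which reached 1 in a single genotype.

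**Figure D1:**
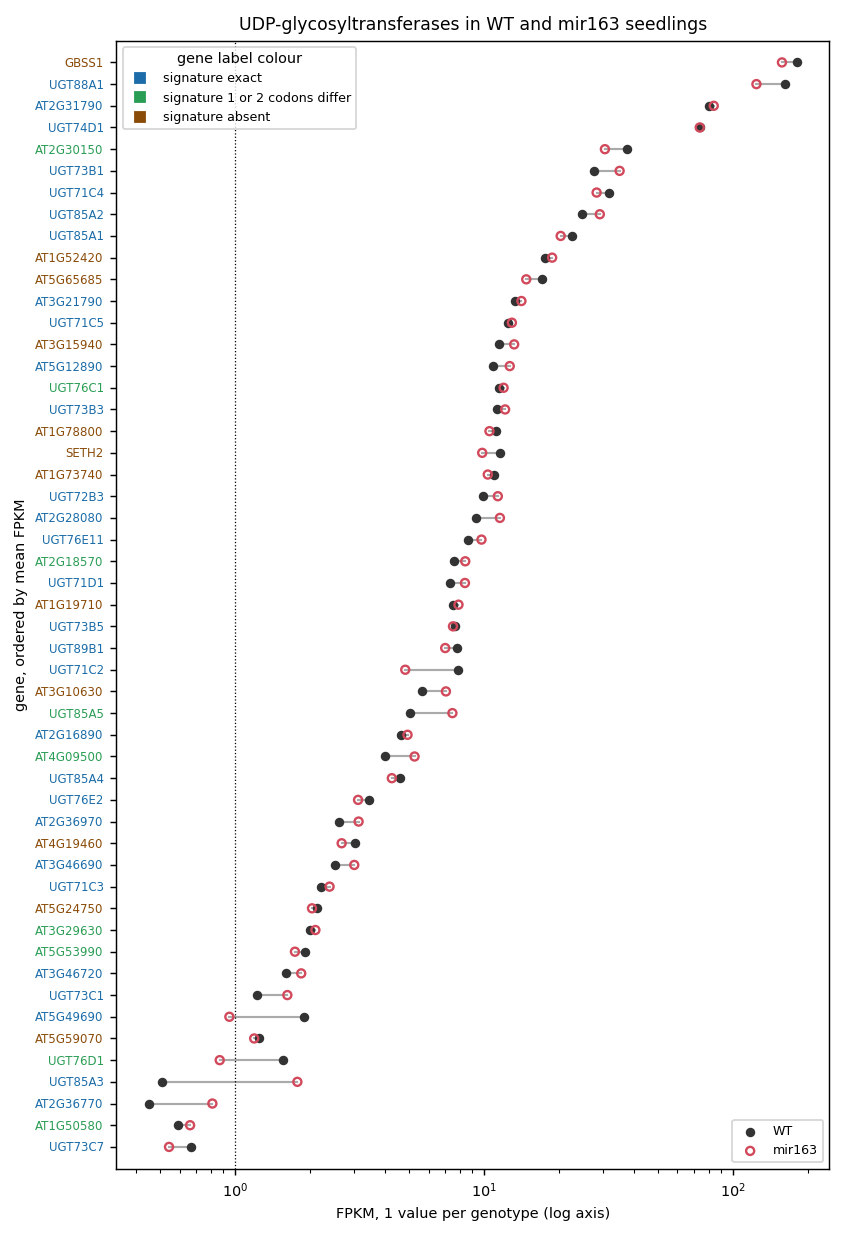
FPKM of each of the 51 members on a log axis, with 1 filled point for WT and 1 open point for mir163, ordered by mean FPKM. The dotted line marks an FPKM of 1, and label colours give the state of the signature codons. The points of a gene lie close together except for UGT85A3, AT5G49690, UGT76D1, AT2G36770, UGT71C2 and UGT85A5, all with a mean FPKM under 10.

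The comparison of mir163 with WT asks whether seedlings mutant for miR163 express these enzymes differently. After Benjamini-Hochberg adjustment of the authors' p-values across the 19264 tested genes, 0 members were called higher and 0 lower at 0.05, and over all genes the share called was 0% in each direction. Every member tested had an adjusted p of 0.9996. Over all 19264 genes the smallest adjusted value was 0.0876. No gene passed, so this threshold cannot tell the members from the rest of the table. At an unadjusted p under 0.05, 1 of 48 members had a higher value, where 0.67% of all genes did, and 0 had a lower one, where 0.327% did. The median p was 0.692 over the members and 0.768 over all genes tested.

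By size alone the members stood close to the rest of the transcriptome. The plain FPKM ratio was at least 1.5 in mir163 for 1 of 48 members, against 3.55% of all genes tested. It was at least 1.5 in the other direction for 3 members, against 3.33% of all genes. A higher value in mir163 was found in 28 members, or 58.3%, and in 51.3% of all genes, and a lower one in 20 members, with 48.7% of all genes. The median change in log2(FPKM + 1) was 0.06, with quartiles at -0.12 and 0.18, and over all genes it was 0.01, with quartiles at -0.12 and 0.12. In 37 members, or 77.1%, the ratio lay between 0.8 and 1.25, against 80.6% of all genes.

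**Figure D2:**
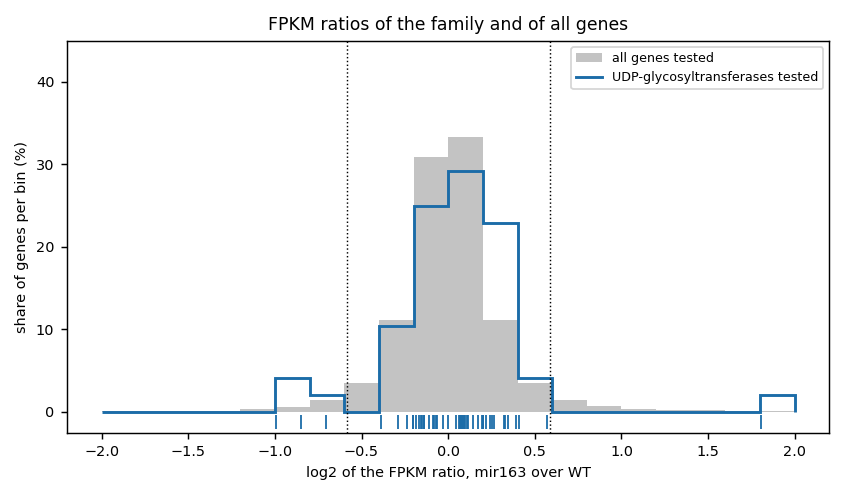
Share of genes in each bin of the log2 FPKM ratio of mir163 over WT, for all 19264 genes tested (grey) and the 48 members tested (blue line), with 1 tick below for each member. Dotted lines mark a ratio of 1.5 in either direction. The members overlap the main body of genes, with 1 member beyond the upper line and 3 beyond the lower one.

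UGT85A3 (AT1G22380), a putative glucosyltransferase of unassigned acceptor, had the highest ratio. It stood at 0.511 FPKM in WT against 1.78 in the mutant, 3.49 times as high, with p = 0.0223 in the authors' deposited table and a value of 0.9996 after adjustment. As the WT value was under 1, the gene entered the test through its mir163 value alone, so the filter fixed its direction. It did not share any stretch of 50 bases with a transcript of another gene.

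The lower values belonged to AT5G49690, UGT76D1 and UGT71C2. AT5G49690 stood at 1.89 FPKM in WT against 0.951 in the mutant, a ratio of 0.502 (p = 0.122 in the authors' deposited table). UGT76D1 (AT2G26480), which glucosylates dihydroxybenzoic acids and is known from pathogen defence, stood at 1.57 and 0.870, a ratio of 0.555 (p = 0.133 in the authors' deposited table). Both were tested through their WT values alone, so the filter fixed their direction too. UGT71C2 (AT2G29740) stood at 7.89 and 4.84, a ratio of 0.613 (p = 0.149 in the authors' deposited table), and was above 1 in both genotypes. None of the 3 passed even without adjustment.

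Just inside the 1.5-fold line on the other side was UGT85A5 (AT1G22370), at 5.04 FPKM in WT against 7.48 in the mutant, a ratio of 1.48 (p = 0.324 in the authors' deposited table). AT2G36770, at 0.451 and 0.813, had a ratio of 1.80 but was under 1 in both genotypes. The 22 members with a mean FPKM of at least 10 had ratios from 0.766 to 1.27. At the low end was UGT88A1 (p = 0.421 in the authors' deposited table), and at the high end UGT73B1 (p = 0.400 in the authors' deposited table). The 26 members with a mean between 1 and 10 ranged from 0.502 to 3.49, and both ends are genes tested through a single genotype.

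Of the 36 tested with an exact or nearly exact signature, 24 were above and 12 below the WT value in mir163, with a median log2(FPKM + 1) change of 0.08. Of the 12 without it, 4 were higher and 8 lower, with a median of -0.06 and ratios from 0.850 to 1.25. Over all genes tested, 51.3% were higher and 48.7% lower. The 36 include UGT85A3, AT5G49690 and UGT76D1, whose direction the filter fixed. The difference between these groups of genes was not tested.

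Many UGT genes sit in tandem arrays that arose by duplication, and 25 of the 51 members did. They lay in 15 runs of genes that RefSeq's product text names as UDP-glycosyltransferases, with gaps of at most 10000 bases, while 26 stood alone. UGT genes that this text does not name were not counted in the runs. In the run of 5 genes on chromosome 1 from 7890259 to 7906969, UGT85A2 stood at 24.8 FPKM in WT against 29.3 in the mutant, next to UGT85A5 and UGT85A3. UGT85A1 (AT1G22400), which adds glucose to the cytokinin trans-zeatin, closed the run at 22.6 and 20.4. Of the 4 genes of that run in the table, 3 had higher values in mir163, UGT85A3 among them through the filter. Their relative UGT85A4, elsewhere on the chromosome, stood at 4.62 and 4.27.

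UGT71C5, UGT71C4 and UGT71C3 lie side by side on chromosome 1, with ratios from 0.891 to 1.08. UGT71C5 (AT1G07240), which glucosylates abscisic acid, had 12.6 FPKM in WT against 12.97 in the mutant, and UGT71C4 stood at 31.9 and 28.4. In a run of 7 annotated genes on chromosome 3, 5 were in the table. The members UGT76E11, AT3G46690 and AT3G46720 had ratios from 1.13 to 1.19, while the other genes of that run, AT3G46650 and AT3G46700, had ratios of 0.537 and 0.930. In a run on chromosome 2, UGT71C2 stood beside UGT71D1, at 7.30 and 8.40, and UGT71C1, at 10.8 and 11.6.

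The numbered families showed a similar picture. Among UGT73 members, UGT73B1 (AT4G34138) stood at 27.6 FPKM in WT against 35.1 in the mutant, UGT73B3 at 11.3 and 12.2, and UGT73B5 at 7.68 and 7.52. UGT73B3 and UGT73B5 are known as stress- and pathogen-responsive enzymes. UGT76C1 (AT5G05870), which forms cytokinin N-glucosides, stood at 11.5 and 12.02. UGT72B3 and UGT89B1, each the only gene with its family number among the 51 members, were at 9.96 and 11.4, and at 7.81 and 7.00. The UGT72 family has further genes that the description rule did not find, given below.

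**Figure D3:**
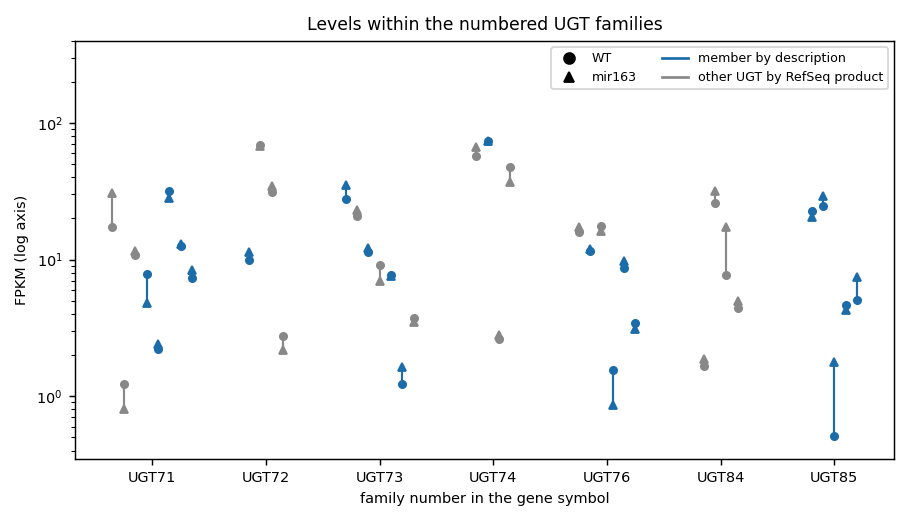
FPKM on a log axis in WT (circles) and mir163 (triangles) for each tested gene of the numbered families with at least 4 such genes, blue for members by description and grey for others by RefSeq product text. Within a family levels spread much further than the genotypes differ, and UGT85A3 and UGT84A3 have the widest ratios with higher values in mir163.

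The description rule does not find every such gene, so RefSeq's product text was searched for the same words. It names 130 genes, of which 102 were in the table, the 51 members and 51 others. This search was incomplete too, since DOGT1, UGT74E2 and IAGLU, on the lists below, were found by neither rule. Of these others 43 held the signature exactly or nearly, and 8 lacked it, among them ATTPS6, DGD1 and LEW3. The sterol glucosyltransferases SGT and UGT80B1 lacked it too, so its absence alone does not place a gene outside the enzymes of small molecules. Among the others 48 were tested, 32 higher and 16 lower in mir163, where 51.3% and 48.7% of all genes were, with a median log2(FPKM + 1) change of 0.08. At an unadjusted p under 0.05, 1 had a higher value, against the 0.67% of all genes given above, and 0 a lower one. At least a 1.5-fold difference was found in 5 with a higher and 3 with a lower value, where 3.55% and 3.33% of all genes had one.

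The one past the unadjusted threshold was UGT84A3 (AT4G15490), which makes glucose esters of hydroxycinnamic acids. It stood at 7.68 FPKM in WT against 17.3 in the mutant, a ratio of 2.25 with p = 0.00915 in the authors' deposited table, and 0.9996 after adjustment. The relatives UGT84A1, UGT84A2 and UGT84A4, on the same list of hydroxycinnamic acid enzymes, were also higher, with ratios of 1.13, 1.22 and 1.12 and no p under 0.05. UGT84A2, the main enzyme of sinapoyl glucose synthesis, stood at 25.9 and 31.7.

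Next came a neighbouring pair on chromosome 3. UGT71B1 stood at 17.2 FPKM in WT against 30.9 in the mutant, a ratio of 1.79 (p = 0.0561 in the authors' deposited table). HYR1, which glucosylates and thereby activates the growth inhibitor hypostatin, stood at 24.3 and 42.7, a ratio of 1.76 (p = 0.0669 in the authors' deposited table). In the same run of 5 genes, UGT71B6, an abscisic acid glucosyltransferase, stood at 1.24 and 0.805, and the member AT3G21790 at 13.3 and 14.2. UGT71B6 was tested through its WT value alone, so the filter fixed its direction. The 3 others at least 1.5-fold lower were UGT71B6, AT3G46650 and AT5G03490. AT5G03490 stood at 9.61 FPKM in WT against 6.38 in the mutant, a ratio of 0.664 (p = 0.193 in the authors' deposited table).

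Of the genes grouped by acceptor or by gene name, UGT75B1, UGT80B1, UGT84A3 and UGT85A3 were at least 1.5-fold higher in mir163. UGT71B6 was at least 1.5-fold lower, and the other genes of these lists lay within 1.5-fold. Over all genes tested, 3.55% were at least 1.5-fold higher and 3.33% lower. UGT85A3 and UGT71B6 were tested through a single genotype, so the filter fixed their direction. No list had a gene past the adjusted threshold, but neither did the rest of the table. For glucosinolates, UGT74B1, the S-glucosyltransferase of core glucosinolate synthesis, stood at 57.1 FPKM in WT against 67.1 in the mutant. For salicylic acid, UGT74F2 was at 47.2 and 36.9, UGT74F1 at 2.61 and 2.80, and UGT76B1, which also conjugates isoleucic acid, at 16.0 and 17.4. For cytokinins, 2 of 4 were higher, and UGT76C2 stood at 17.6 and 16.3. Among brassinosteroid enzymes, DOGT1 was at 12.1 and 16.9 (p = 0.215 in the authors' deposited table) and UGT73C6 at 3.76 and 3.52.

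For auxins, IAGLU stood at 58.1 FPKM in WT against 55.7 in the mutant, UGT74E2, which acts on indole-3-butyric acid, at 5.20 and 3.69, and UGT75B1, found with the callose synthase complex, at 24.4 and 38.5 (p = 0.160 in the authors' deposited table). The monolignol enzymes UGT72E1, UGT72E2 and UGT72E3 had WT levels of 68.9, 31.4 and 2.74 FPKM, against 67.5, 34.4 and 2.16 for the mutant. GT72B1, known for conjugating chlorinated phenols and anilines, stood at 55.1 and 62.6. In flavonol glycosylation, the rhamnosyltransferase UGT78D1 was at 40.1 and 42.5, and the flavonol 7-O-rhamnosyltransferase AT1G06000 at 44.3 and 60.3 (p = 0.344 in the authors' deposited table). The anthocyanidin 5-O-glucosyltransferase AT4G14090 was low, at 1.69 and 1.53. It shared 11.3% of its 50-base stretches with other genes, most often with AT4G14100. The sterol glucosyltransferases SGT and UGT80B1 stood at 13.5 and 13.6, and at 4.29 and 6.63 (p = 0.148 in the authors' deposited table).

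**Figure D4:**
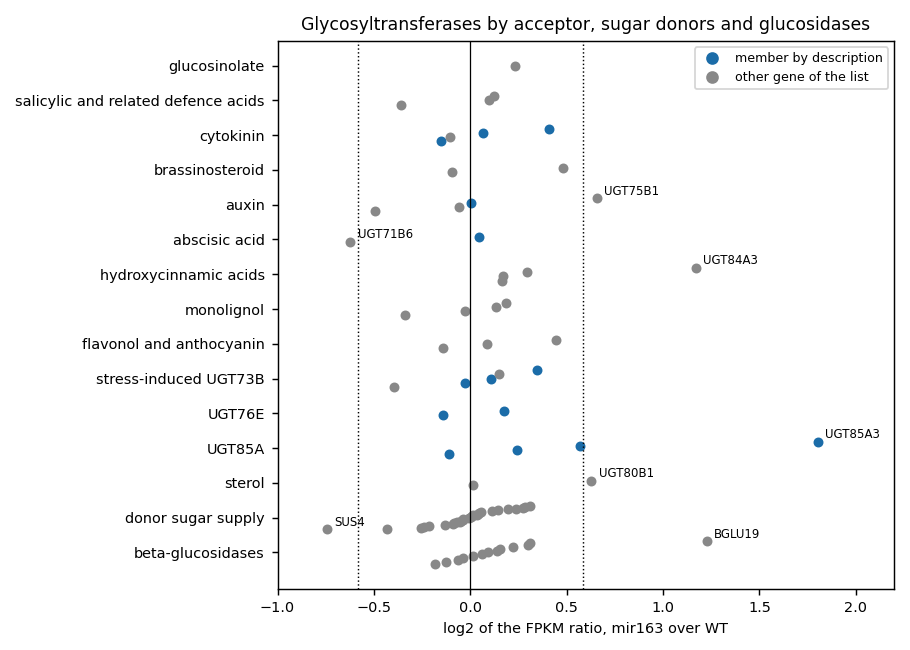
Log2 of the FPKM ratio of mir163 over WT for each gene of the glycosyltransferase lists, the sugar donor list and the numbered beta-glucosidases. Blue marks members by description and grey marks others. The UGT73B, UGT76E and UGT85A lists are grouped by gene name and the rest of the glycosyltransferase lists by acceptor. Dotted lines mark a ratio of 1.5, and genes beyond them are named. UGT85A3, BGLU19 and UGT84A3 lie farthest to the right, at ratios of 3.49, 2.34 and 2.25.

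The enzymes that supply the sugar donors and those that remove the sugar again mostly stood near their WT levels. Of 28 donor enzymes tested, 14 were higher and 14 lower, where 51.3% and 48.7% of all genes were. Of these enzymes 0 had a p under 0.05, where 0.67% of all genes did with a higher and 0.327% with a lower value. Their median log2(FPKM + 1) change was -0.0031. RHM1, which makes UDP-rhamnose, stood at 151 FPKM in WT against 146 in the mutant, and UGP1, a UDP-glucose pyrophosphorylase, at 113 and 114. NRS/ER, which also acts in rhamnose synthesis, was at 87.1 and 87.2. The widest ratio was that of the sucrose synthase SUS4, at 5.91 and 3.53, a ratio of 0.598 (p = 0.0804 in the authors' deposited table). Of 13 numbered beta-glucosidases, 9 were higher and 4 lower. A ratio between 0.8 and 1.25 was found in 12 of them and in 80.6% of all genes tested. BGLU11, BGLU40 and BGLU10 had the highest levels, with WT values of 30.5, 28.3 and 21.0 against 26.8, 27.6 and 24.4 for the mutant. BGLU19 was the exception, at 1.141 and 2.67 (p = 0.280 in the authors' deposited table).

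Whether members carry a site for miR163 was checked on their RefSeq transcripts. Mature miR163, at chr1:24884359-24884382 on the plus strand of TAIR10.1, is shown with its seed (bases 2 to 8) in capitals.
miR163: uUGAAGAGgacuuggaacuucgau
PXMT1, a known target, had a site with 1 difference (mismatch or gap base), the fewest of all genes in the table, and stood at 1.32 FPKM in WT against 47.6 in the mutant. No member came closer than 6 differences. That was AT2G28080, at 9.27 and 11.6 (ratio 1.25, p = 0.403 in the authors' deposited table), and 4.40% of all genes had a site as close or closer. The members' median was 8 differences. At 7 or fewer were 35.3% of members and 31.0% of all genes.

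Near-identical copies and overlapping genes limit some of these values. Of the 51 members, 14 had 50-base stretches in common with a transcript of another gene on either strand, and 4 had more than 10% of their stretches so. These shares count transcripts of any other gene, and the gene named is the one shared with most often. The transcript of AT5G59070 shared 97.3%, most often with AT5G59080, which overlaps it on the opposite strand. AT5G59070 stood at 1.26 and 1.196, and AT5G59080 at 57.0 and 38.3. UGT73B1 shared 25.3%, most often with AT4G34139 on the opposite strand. AT3G10630 shared 10.4%, most often with NUDX26, and AT2G36770 10.1%, most often with its copy AT2G36780. Whether libraries or counting kept strand is not stated in the labels, so reads from overlapping pairs cannot be told apart and these levels are uncertain. UGT88A1, UGT74D1, AT2G31790 and UGT85A3 shared none.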

How the data were processed

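Each genotype had 3 RNA libraries, prepared from Trizol extracts with NEBNext Ultra reagents, per the labels' protocols. Per the submitters' processing notes, the tools were TopHat, Cufflinks and bcl2fastq 2.17.1.14 and the build was TAIR10, with no roles. The authors deposited FPKM, 1 value per genotype, a log2 fold change, which equals the log2 ratio of the FPKM columns within 0.0001, and an unadjusted p-value. No source used here tells which test gave it or how libraries were combined. The depth is unknown, so no interval was given.

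Benjamini-Hochberg adjustment was applied to these p-values across 19264 genes with an FPKM of at least 1 in a genotype, leaving out 691. limma, planned for values per library, could not be fitted. Ratios are plain FPKM ratios, and medians use log2(FPKM + 1), which understates the change of low genes. The members and lists were chosen with earlier results of these data known. From the lists, 11 of 90 identifiers with no name or note in RefSeq were dropped, and genes outside the table were not analysed here. Named were members past 1.5-fold or at p under 0.05, the most abundant, and list genes. UGT85A5, AT2G36770, UGT71B1, HYR1, AT5G03490 and the genes of the tandem runs and shared stretches were chosen after their values were seen. The description was blank for 3040 genes and removed for 1863 in the table used here, among them 36 of the 51 others by RefSeq product text. A further gene that the description matches is not reported here. All 51 members matched RefSeq (TAIR10.1), from which coordinates and sequences come. A signature match with 1 codon different was accepted anywhere in the coding sequence, and one with 2 only near the position of the exact ones. Calculations used Python 3.11.15, numpy 2.4.6, pandas 2.3.3, matplotlib 3.10.9 and edlib. Only the adjustment and the fold counts were tested on simulated data. The alternatives were other filters, scalings, pseudocounts, folds and member rules.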

Additional observations from a re-analysis of the deposited data

How the results depend on the processing

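No paired analysis was possible because the table holds no values for single libraries, which also means that none could be left out. The member rule by RefSeq product text and the filter on a mean FPKM of at least 1 were chosen after seeing the data. No member was called by adjusted p under any filter or member rule tried. Nor was any other gene, since the smallest adjusted value over all genes lay between 0.0864 and 0.0925 across the filters. The absence of calls was thus shared by the whole table and cannot show that the members' result is stable. The median log2 change of the members stayed between 0.04 and 0.08 over 8 alternatives. With no filter, 2 members were at least 1.5-fold higher, AT2G36770 being the addition. With a minimum FPKM of 5, 32 members were left, with 0 at an unadjusted p under 0.05. Of these, 0 were at least 1.5-fold higher and 1 (UGT71C2) at least 1.5-fold lower, since UGT85A3, UGT76D1 and AT5G49690 were not tested. The shares of all genes with no filter and at this minimum were not counted, so these counts cannot be set against them. At a fold of 2, 1 was higher and 0 were lower. The higher one was UGT85A3, which was tested through its mir163 value alone. The share of all genes past that fold was not counted, so this count cannot be set against it. By RefSeq product text, 96 genes were tested, with 2 higher at an unadjusted p under 0.05, where 0.67% of all genes were. At least 1.5-fold higher were 6 and at least 1.5-fold lower 6, where 3.55% and 3.33% of all genes were. UGT85A3, AT5G49690, UGT76D1 and UGT71B6 are among them through a single genotype, so the filter fixed their direction. Median-ratio scaling, which divided mir163 by 1.005, and quantile normalization left the 1.5-fold counts as they were. The number of members with a higher value went from 28 to 27 under the first and stayed at 28 under the second. Depth is unknown, so the counting error of genes near an FPKM of 1 cannot be given.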

Other observations

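One UGT outside the description rule overlaps a gene with a large difference. AT3G46650 shared 44.1% of its 50-base stretches with transcripts of other genes. Most often this was PCL1, which it overlaps by 1507 bases on the opposite strand. PCL1, an evening-expressed clock gene, stood at 6.59 FPKM in WT against 44.7 in the mutant (p = 0.0011 in the authors' deposited table), while AT3G46650 stood at 2.03 and 1.09. The values of this pair thus went in opposite directions. UGT73B4 shared 18.5% of its stretches with other genes, most often with UGT73B5, a gene model that overlaps it on the same strand. UGT73B4 stood at 9.12 and 6.93 and UGT73B5 at 7.68 and 7.52. How reads of such pairs were assigned was not tested.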
